A study of Homo sapiens with 6 samples.

Results

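A group of 10 genes of fibronectin and the extracellular matrix was followed in LA1-55n, a human neuroblastoma cell line, after a hairpin against glycine decarboxylase had been induced. They are FN1 and HMCN1 (adhesive matrix glycoproteins), FBN1 and FBN2 (fibrillins), LOX and LOXL2 (lysyl oxidases), TIMP1 and TIMP3 (metalloprotease inhibitors), and LUM and BGN (small leucine-rich proteoglycans). All 10 were found among the 14779 genes with a named probe set, each with 1 probe set. The members were chosen by symbol and the probe set was to be selected on its mean level over the 6 arrays, which with 1 probe set a gene left nothing to choose. The genes were listed with results of this same comparison already known, so their values below are a description and not independent evidence.

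The shGLDC99 group holds 3 arrays of LA1-55n cells carrying the teton-shGLDC99 construct, a doxycycline-inducible hairpin against GLDC. The shGFP group holds 3 arrays of the same line with an inducible hairpin against GFP, teton-shGFP, as the control. Both groups received doxycycline at 0.5 µg/ml for 7 days, so the drug is common to them and no array of undrugged cells was analysed here. A single hairpin against GLDC was used, and whether each line is a clone or a pool is not given in the sources used here. RNA was hybridised to Affymetrix Human Gene 2.0 ST arrays, and the replicates are called a, b and c. The labels do not say how the replicates were separated beyond being independent samples, so each p-value reflects only how these samples scatter, which may be technical.

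The extracellular matrix is a secreted network of proteins and proteoglycans that cells build, grip and cut back. Fibronectin is assembled into fibrils by integrins on the cell surface, fibrillins form the microfibrils that scaffold elastic fibres and hold latent TGF-beta, and lysyl oxidases cross-link collagen and elastin. TIMPs block the metalloproteases that cut the matrix, and lumican and biglycan bind collagen fibrils. In neuroblastoma, fibronectin belongs to the genes that mark the mesenchymal, substrate-adherent identity, as against the adrenergic one.

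The promoters of FN1, which fell most among the members with a promoter in the table used, and of TIMP3, which rose most, are shown because these genes lie at opposite ends of the group. Each run is the 250 bases before the gene's start in RefSeq, build GRCh38.p14, written 5′ to 3′ on the gene's strand. FN1 lies on the minus strand (chr2:215436069-215436318) and TIMP3 on the plus strand (chr22:32801455-32801704). Capitals mark TGACGTCA, the cyclic AMP response element, CCAAT and TATAA, each on either strand.
FN1: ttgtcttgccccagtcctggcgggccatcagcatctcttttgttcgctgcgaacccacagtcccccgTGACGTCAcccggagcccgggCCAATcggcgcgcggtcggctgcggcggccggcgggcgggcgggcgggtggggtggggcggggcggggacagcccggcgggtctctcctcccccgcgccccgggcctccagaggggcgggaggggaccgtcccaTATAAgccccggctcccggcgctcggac
TIMP3: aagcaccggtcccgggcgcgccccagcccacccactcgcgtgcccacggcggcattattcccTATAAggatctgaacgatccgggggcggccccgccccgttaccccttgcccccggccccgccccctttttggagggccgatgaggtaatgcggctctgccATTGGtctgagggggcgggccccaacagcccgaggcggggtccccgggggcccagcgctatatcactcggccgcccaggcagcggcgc

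The FN1 window held TGACGTCA at -183, CCAAT at -162 and TATAA at -28, counted from the gene's start to the first base of the match. The TIMP3 window held ATTGG, the reverse complement of CCAAT, at -88 and TATAA at -188. Both windows were rich in G and C, at 76.4% for FN1 and 72.4% for TIMP3, against a mean of 57.2% over the windows of the table. Of the 10 genes, 7 had a window there (FN1, LOX, FBN1, FBN2, TIMP1, TIMP3 and BGN). Of these 7, only FN1 held TGACGTCA, which was present in 1.65% of 35116 windows. CCAAT was found in 4 of the 7 (32.0% of all windows), TATAA in 2 (18.9%) and the GC box GGGCGG in 6 (42.6%). Members were counted by gene, with 9 windows for the 7, while the percentages are shares of windows, so these do not compare directly. TGANTCA, the AP-1 site, was found in 0 of the 7 and in 6.57% of all windows. The capitalised matches do not overlap, while some GGGCGG matches in FN1 overlap each other; motifs were searched on both strands and picked after these windows had been read. A match is a stretch of letters and does not show binding.

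Pairs of arrays correlated at 0.993 to 0.994 (Pearson, across all probe sets) within a group and at 0.988 to 0.990 between groups. GLDC, the target of the hairpin, was at 5.98, 5.65 and 5.93 on the log2 scale in the shGLDC99 arrays, against 7.85, 7.90 and 7.81 in the shGFP arrays, which is the direction the labels give. It fell by 2.00 ± 0.10 (SE) on that scale (limma adjusted p = 0.00101). Neuroblastoma markers were present, with 10 of 16 measured genes, among them PHOX2A, HAND2, TH and DDC, above the median level of all genes (5.09). Per array the 16 averaged 6.17 to 6.28 in the shGLDC99 arrays and 6.19 to 6.26 in the shGFP arrays. Of the 16, 3 fell and 3 rose in the limma fit, or 37.5%, against 8.52% of all genes (changed meaning an adjusted p under 0.05). ISL1 fell by 1.09, GATA2 by 0.56 and GATA3 by 0.48 on the log2 scale (adjusted p of 0.00412, 0.0122 and 0.0161), all of them transcription factors of the sympathetic lineage. The risers were RET, a receptor kinase, by 0.65, CHGB, a secretory granule protein, and GAP43, a growth cone protein, both by 0.41 (adjusted p of 0.0346, 0.0145 and 0.0283). ISL1 held its call without any 1 array. GATA2 lost it without shGFP b or c, GATA3 and RET in all cases but without shGFP a, CHGB without shGLDC99 a or any shGFP array, and GAP43 without each of the 6, with adjusted p of up to 0.0509, 0.0625, 0.103, 0.0573 and 0.0902. These 6 were named after their values were seen, and their part in the matrix results was not tested. Fibroblast and stromal markers, which could bring matrix transcripts into a culture, averaged, per array, 4.21 to 4.25 in the shGLDC99 arrays and 4.16 to 4.33 in the shGFP arrays. Of the 8 measured, THY1, TWIST1 and PRRX1 lay above that median, while DCN averaged 1.73 in shGLDC99 cells and 1.67 in shGFP cells. Whether THY1, TWIST1 and PRRX1 transcripts came from the neuroblastoma cells themselves or from other cells was not tested. Among 8 stromal, 7 Schwann and glial, 6 endothelial and 5 leukocyte markers measured, 0 changed in the limma fit. An unadjusted limma p under 0.05 was found for 2, 0, 0 and 1 of them. The lists held 16, 11, 9 and 11 markers, so the rest, PDGFRA and PTPRC among them, were not tested. In whole-culture RNA, fewer cells of a type and less RNA per cell cannot be told apart.

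A gene is said below to have risen or fallen where its limma p was under 0.05 after Benjamini-Hochberg adjustment across all 14779 genes. Of the 10 matrix genes, 4 fell (FN1, HMCN1, LOX and FBN2), 2 rose (TIMP3 and LUM) and 4 were not past the threshold (LOXL2, FBN1, TIMP1 and BGN). Over all genes, 8.52% changed, 4.8% lower and 3.72% higher in shGLDC99 cells. Because the 10 were listed with this comparison known, nothing is read from the higher share among them. The median difference of the 10, shGLDC99 minus shGFP, was -0.28 on the log2 scale, against -0.01 over all genes, and their median absolute difference was 0.40, against 0.13. The groups did not overlap in 9 of the 10, LOXL2 being the exception, and in 30.8% of all genes. For each of those 9, exact permutation of the group labels (two-sided) returned p = 0.1, below which 3 arrays against 3 cannot go.

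Among the members only, the adhesive glycoproteins, the fibrillins and the lysyl oxidases all had lower means in shGLDC99 cells. Of these, LOXL2 and FBN1 did not pass the test. Both member inhibitors and both member leucine-rich proteoglycans had higher means, although TIMP1 and BGN did not pass it.

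**Figure D1:**
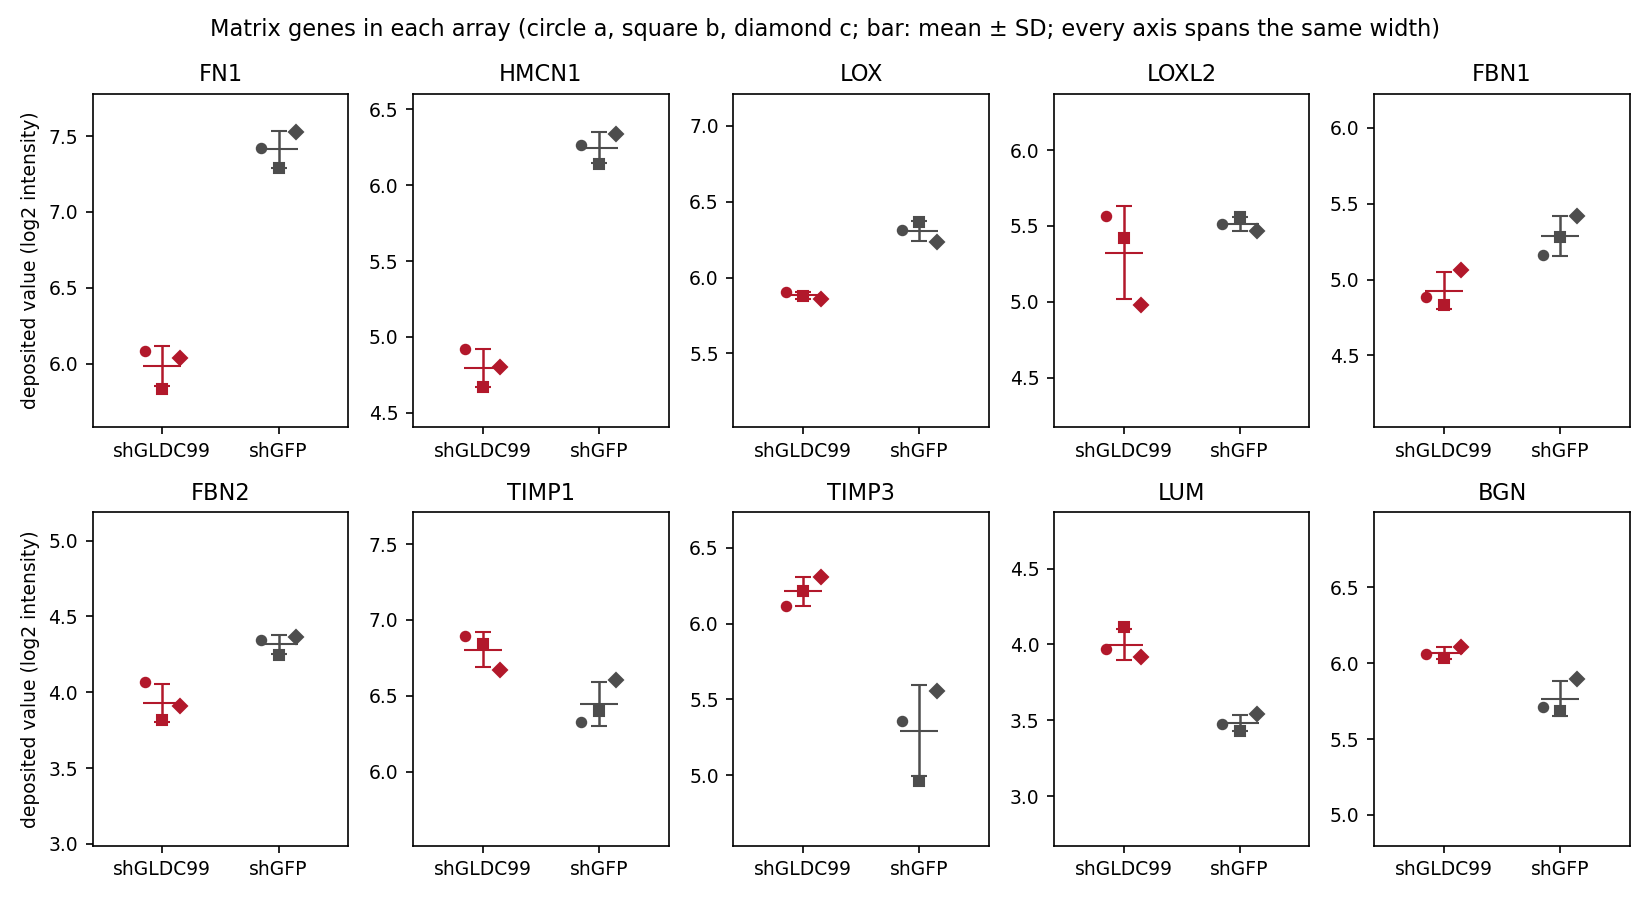
Deposited value of each of the 10 matrix genes on the log2 scale in the 3 shGLDC99 arrays (left, red) and the 3 shGFP arrays (right, grey), with mean and SD as bars and every vertical axis spanning the same width. FN1 and HMCN1 show the widest gap, and LOXL2 is the only gene whose groups overlap.

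FN1, which encodes fibronectin, was at 6.08, 5.83 and 6.04 in the shGLDC99 arrays, against 7.42, 7.29 and 7.53 in the shGFP arrays. Every shGLDC99 array lay more than 1 log2 unit below every shGFP array. FN1 averaged 5.98 ± 0.131 in shGLDC99 cells and 7.41 ± 0.120 in shGFP cells (SD, n = 3 each). It fell by 1.43 ± 0.0973 (SE) on the log2 scale, which left 37.2% of the shGFP level (2.69-fold lower, limma adjusted p = 0.00164).

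HMCN1, which encodes hemicentin-1, a very large immunoglobulin-repeat protein of the matrix, was at 4.92, 4.67 and 4.80 in the shGLDC99 arrays, against 6.26, 6.14 and 6.34 in the shGFP arrays. The groups were again well apart. It fell by 1.45 ± 0.0915 (SE) on the log2 scale, to 36.6% of the shGFP level (limma adjusted p = 0.00153). Its shGLDC99 mean of 4.80 lay below the median level of all genes and is not shown to exceed background, so the size of the fall is uncertain. FN1 and HMCN1 were the 8th and 7th largest falls of the whole table, and both held their calls without any 1 of the 6 arrays, with adjusted p of 0.00892 to 0.0153.

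Over the 6 arrays, HMCN1 was the gene whose profile came nearest to that of FN1. After each gene was centred on its own mean, the root mean square distance between them was 0.0299 on the log2 scale. The next 4 genes were AKNAD1 (distance 0.116), RORB, a nuclear receptor of neurons (distance 0.118), MIR490 (distance 0.154) and REST, a repressor of neuronal genes (distance 0.156). FN1 and HMCN1 shared their order within groups. Replicate a was highest and b lowest in shGLDC99 cells, and c highest and b lowest in shGFP cells. The distance was taken over the same 6 values, so this order is part of the likeness and no further evidence for it. The arrays are common to all genes, so genes with a like step between the groups lie near each other by this measure.

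**Figure D2:**
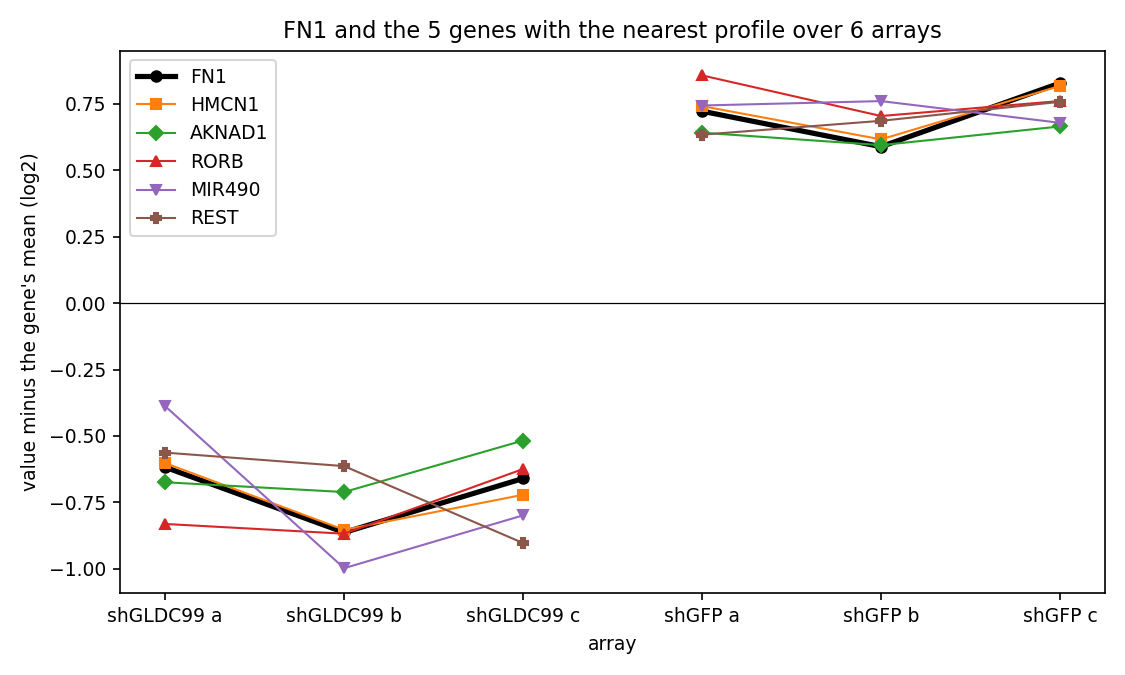
Value minus the gene's own mean (log2) in each array, shGLDC99 a to c on the left and shGFP a to c on the right, for FN1 and the 5 genes nearest to it. Of the 5, the HMCN1 line lies closest to that of FN1 in both groups.

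Of the 2 lysyl oxidases, LOX fell and LOXL2 did not pass the test. LOX, the founding cross-linking enzyme of collagen and elastin, was at 5.91, 5.88 and 5.86 in the shGLDC99 arrays, against 6.31, 6.37 and 6.24 in the shGFP arrays. Its spread was small in both groups, with SDs of 0.0226 and 0.0650 for shGLDC99 and shGFP cells. It fell by 0.42 ± 0.0642 (SE) on the log2 scale, to 74.6% of the shGFP level (limma adjusted p = 0.0135). The call was lost without shGLDC99 b or c or without shGFP a or b, with adjusted p of 0.0517 to 0.0539.

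LOXL2, a relative with scavenger receptor domains that acts on basement membrane collagen, was at 5.57, 5.42 and 4.98 in the shGLDC99 arrays, against 5.51, 5.56 and 5.47 in the shGFP arrays. Array c alone lay low among the shGLDC99 arrays. The difference was -0.19, with a 95% interval of -0.54 to 0.16 (limma adjusted p = 0.50), and -0.02 without shGLDC99 c. The other 3 family members, LOXL1, LOXL3 and LOXL4, gave 0 calls in the limma fit and 1 at an unadjusted p under 0.05. LOXL3 differed by -0.23, with 95% interval -0.45 to -0.01 (adjusted p = 0.183), LOXL1 by 0.16 (-0.18 to 0.50) and LOXL4 by 0.08 (-0.28 to 0.43). The intervals of LOXL2, LOXL3 and, at its edge, LOXL4 overlap that of LOX (-0.58 to -0.27), and differences between genes were not tested.

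Both fibrillins had lower means in shGLDC99 cells, and FBN2 passed the test. FBN1, the main fibrillin of adult microfibrils, was at 4.88, 4.83 and 5.06 in the shGLDC99 arrays, against 5.16, 5.28 and 5.42 in the shGFP arrays. The groups lay close but did not overlap, and the shGLDC99 mean of 4.93 lay below the median level of all genes. The difference was -0.36, with a 95% interval of -0.59 to -0.13 (limma adjusted p = 0.0702). FBN2, the fibrillin most prominent in development, was at 4.07, 3.81 and 3.91 in the shGLDC99 arrays, against 4.34, 4.25 and 4.36 in the shGFP arrays. It fell by 0.39 ± 0.0844 (SE) on the log2 scale (limma adjusted p = 0.0395). Both of its means lay below the median level of all genes. The FBN2 call was lost without shGLDC99 b or c or without shGFP a, b or c, with adjusted p of 0.0813 to 0.119. The third fibrillin, FBN3, differed by -0.05, with 95% interval -0.38 to 0.28 (adjusted p = 0.859).

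TIMP3, an inhibitor that stays bound to the matrix and blocks ADAM as well as matrix metalloproteases, was at 6.12, 6.22 and 6.31 in the shGLDC99 arrays, against 5.36, 4.96 and 5.56 in the shGFP arrays. All shGLDC99 arrays were higher, and shGFP b was the lowest of the 6. TIMP3 averaged 6.21 ± 0.0952 in shGLDC99 cells and 5.29 ± 0.302 in shGFP cells (SD, n = 3 each). The rise was 0.92 ± 0.152 (SE) in log2 units, 1.89-fold (limma adjusted p = 0.0174), the 40th largest rise of the table. The call was lost without shGLDC99 a, b or c or without shGFP a, with adjusted p of 0.0515 to 0.0667.

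TIMP1, a soluble inhibitor of most secreted matrix metalloproteases, was at 6.90, 6.84 and 6.67 in the shGLDC99 arrays, against 6.33, 6.40 and 6.61 in the shGFP arrays. The lowest shGLDC99 array and the highest shGFP array, both c, nearly met. The difference was 0.36, with a 95% interval of 0.12 to 0.60 (limma adjusted p = 0.0761). Of the remaining TIMPs, TIMP2, which also helps to activate MMP2, rose by 0.32 ± 0.0706 (SE) on the log2 scale (adjusted p = 0.0419). The TIMP2 call was lost without each of the 6 arrays (adjusted p of 0.0610 to 0.119). TIMP4 differed by 0.12, with 95% interval -0.24 to 0.47 (adjusted p = 0.693), and its means of 3.01 in shGLDC99 cells and 2.90 in shGFP cells were low.

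**Figure D3:**
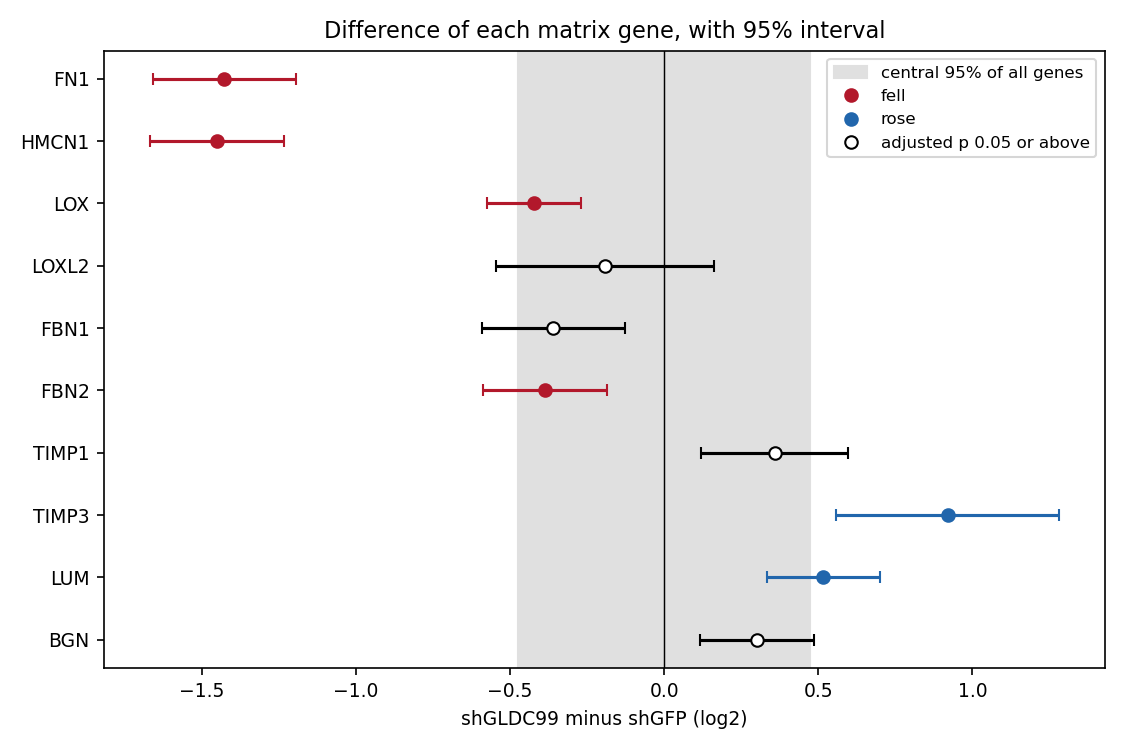
Difference of each of the 10 genes, shGLDC99 minus shGFP on the log2 scale, with its 95% interval; filled points passed the test, and the grey band spans the central 95% of all genes (-0.47 to 0.47). FN1 and HMCN1 lie far to the left of the band, and TIMP3 and, just outside it, LUM to the right.

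In the reference annotation, 3 of the TIMP genes lie inside synapsin genes, which encode proteins on the surface of synaptic vesicles. TIMP3 lies within SYN3, which was at 5.84, 5.68 and 5.41 in the shGLDC99 arrays, against 4.83, 4.71 and 4.99 in the shGFP arrays. SYN3 rose by 0.80 ± 0.127 (SE) on the log2 scale (limma adjusted p = 0.0152), beside the rise of TIMP3. TIMP1 lies within SYN1, which differed by 0.22, with 95% interval 0.03 to 0.40 (adjusted p = 0.149). TIMP4 lies within SYN2, which fell by 0.55 ± 0.120 (SE) on the log2 scale (adjusted p = 0.0395). The SYN3 call was lost without shGLDC99 b or shGFP a or b, and the SYN2 call in all cases but without shGLDC99 a, with adjusted p of up to 0.0581 and 0.112. Within the shGLDC99 group TIMP3 was lowest in a and highest in c, while SYN3 was highest in a and lowest in c. Within the shGFP group both genes were lowest in b and highest in c. The shGFP mean of SYN3 (4.84) and both means of TIMP4 lay below the median of all genes. Whether a probe set reads transcripts of both genes of a pair was not tested. The synapsins were looked at after their values could be seen.

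**Figure D4:**
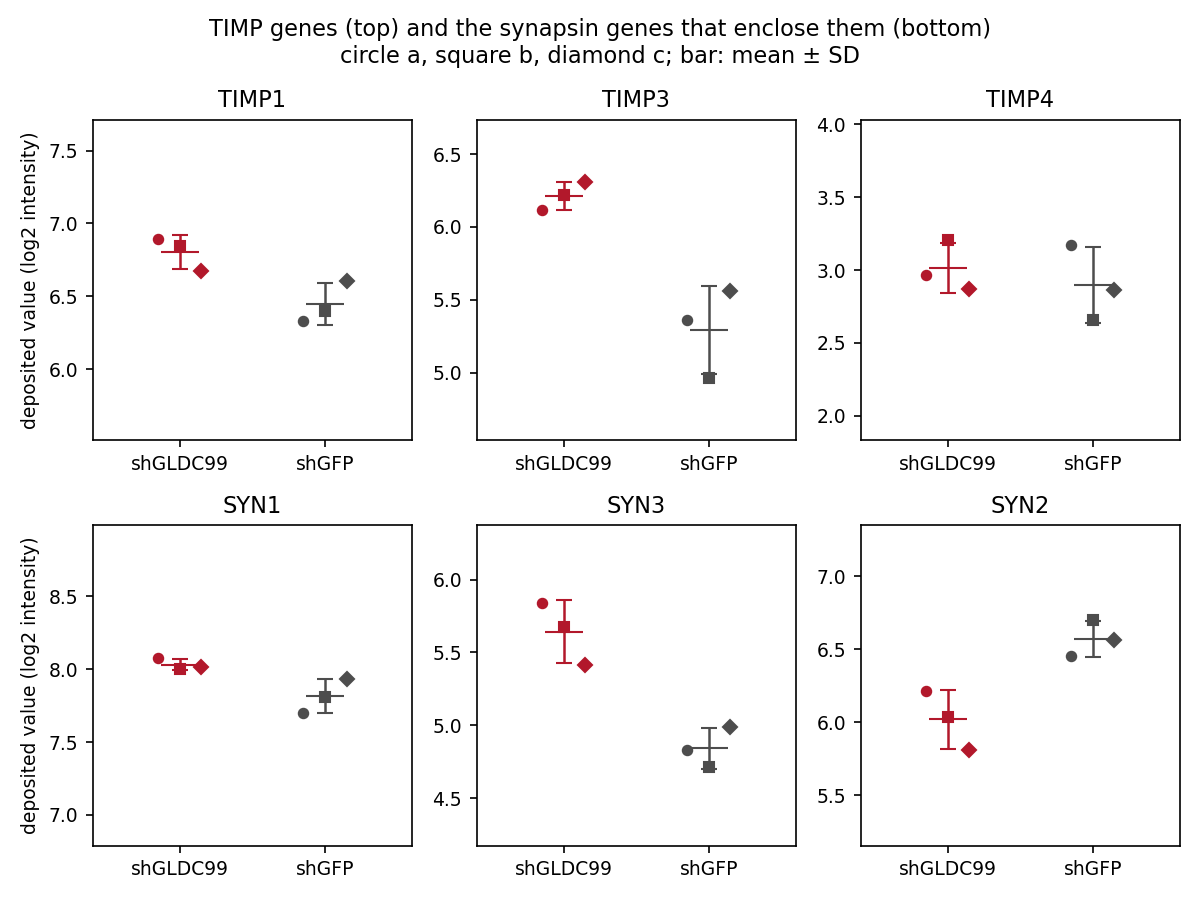
Deposited values (log2) of TIMP1, TIMP3 and TIMP4 in the upper row and of the enclosing genes SYN1, SYN3 and SYN2 below them, with shGLDC99 arrays left of shGFP arrays and mean and SD as bars. TIMP3 and SYN3 are both higher in every shGLDC99 array, whereas SYN2 is lower and TIMP4 overlaps.

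LUM, which encodes lumican, a keratan sulphate proteoglycan of collagen fibrils, was at 3.97, 4.11 and 3.91 in the shGLDC99 arrays, against 3.48, 3.43 and 3.54 in the shGFP arrays. All shGLDC99 arrays were higher. The rise was 0.52 ± 0.0768 (SE) in log2 units, 1.43-fold (limma adjusted p = 0.0125, and 0.0523 without shGFP b). Both means lay well below the median level of all genes, so neither is shown to exceed background.

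BGN, which encodes biglycan, a chondroitin and dermatan sulphate proteoglycan, was at 6.06, 6.03 and 6.11 in the shGLDC99 arrays, against 5.71, 5.69 and 5.90 in the shGFP arrays. The shGLDC99 arrays lay close together, and shGFP c came nearest to them. The difference was 0.30, with a 95% interval of 0.12 to 0.49 (limma adjusted p = 0.0623). Of 14 other leucine-rich proteoglycans measured, 1 fell, TSKU, an inhibitor of growth factor signalling, by 0.56 ± 0.105 (SE) on the log2 scale (adjusted p = 0.0252), and 0 rose. The TSKU call was lost in all cases but without shGLDC99 b (adjusted p of up to 0.0834). DCN, encoding decorin, the nearest relative of biglycan, differed by 0.06 (adjusted p = 0.804) and ASPN, encoding asporin, by 0.11 (adjusted p = 0.572), both at mean levels of 1.67 to 1.91.

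The rest of the matrix was described with lists. Written from general knowledge, they held 261 genes beside the 10, of which 134 had a named probe set. Of these 134, 9 fell and 5 rose, or 10.4%, against 8.52% of all genes, a difference that was not tested. Their median difference was -0.05. FN1's receptor subunits ITGA5, ITGAV and ITGB1 had no named probe set, nor had HMCN2, so integrins were not analysed here. Without the dimmest 40% of genes 22 of the matrix genes changed, beside 2221 of all genes, and without any 1 array 5 to 8 did, beside 461 to 546.

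Of 25 measured genes listed by name for elastic fibres and microfibrils, not all of them shown to encode matrix glycoproteins, 3 fell and 1 rose. Their median difference was -0.09. LTBP1, which anchors latent TGF-beta to fibronectin and fibrillin, was at 5.92, 5.97 and 6.06 in the shGLDC99 arrays, against 6.64, 6.64 and 6.78 in the shGFP arrays. The groups were clearly apart, and LTBP1 fell by 0.71 ± 0.0740 (SE) on the log2 scale (limma adjusted p = 0.00558). ADAMTSL1, a secreted ADAMTS-like protein without protease activity, fell by 0.75 (adjusted p = 0.00622) and FBLN7, a fibulin, by 0.38 (adjusted p = 0.0274). MFAP3, a microfibril-associated protein, rose by 0.51 (adjusted p = 0.0224). The shGLDC99 mean of ADAMTSL1 (4.71) and both means of FBLN7 (4.51 in shGLDC99 cells and 4.89 in shGFP cells) lay below the median of all genes. LTBP1 and ADAMTSL1 held their calls without any 1 array. FBLN7 lost it without each of the 6, and MFAP3 in all cases but without shGFP c, with adjusted p of up to 0.0899 and 0.0748.

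Of 32 matricellular and adhesive glycoproteins, 3 fell and 2 rose, with a median of 0.03. RELN, the guidance protein reelin, rose by 1.88 on the log2 scale (limma adjusted p = 0.00152) and CCN3, a matricellular regulator of growth, by 0.91 (adjusted p = 0.0248). NELL1, a secreted protein with thrombospondin-like domains, fell by 1.23 (adjusted p = 0.0103) and NPNT, nephronectin, an integrin ligand of basement membranes, by 0.75 (adjusted p = 0.0193). MFGE8, an RGD-bearing bridge between integrins and dying cells, fell by 0.71 (adjusted p = 0.0441). MFGE8 was named after its value was seen, to complete the count. The lower group means of RELN and CCN3 (4.57 and 3.50, both shGFP) and of NELL1 and MFGE8 (4.39 and 4.88, both shGLDC99) lay below the median of all genes, where signal over background is not shown. RELN and NELL1 held their calls without any 1 array. MFGE8 lost it without each of the 6, NPNT without shGLDC99 a, b or c or shGFP a, and CCN3 without shGLDC99 a or c or any shGFP array, with adjusted p of up to 0.125, 0.0689 and 0.0838.

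Of 9 measured genes for fibronectin receptors and fibril assembly, 1 rose and 0 fell. The riser was SDC3, the syndecan of neural cells, by 0.67 ± 0.0814 (SE) on the log2 scale (limma adjusted p = 0.00796), and it held without any 1 array. Its shGFP mean of 4.83 lay below the median of all genes. Of 24 listed basement membrane genes, 6 were measured, with no laminin or collagen IV chain among them. Of the 6, 1 fell, HSPG2, encoding perlecan, by 0.44 (adjusted p = 0.0441). Of 30 listed genes for fibrillar collagens and their processing, 9 were measured, all of them processing genes, so no fibrillar collagen was tested. Of the 9, 1 fell, PCOLCE, which enhances the trimming of procollagen, by 0.30 (adjusted p = 0.0404). Only 1 of 27 listed other collagens was measured, and it did not pass the test. HSPG2 and PCOLCE lost their calls without each of the 6 arrays, with adjusted p of 0.0560 to 0.124 and 0.0718 to 0.120.

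The measured metalloproteases, a list of MMPs and ADAMs, gave no call. Of 50 listed, 30 were measured, without MMP2, MMP3, MMP7, MMP9 or any ADAMTS protease, so those were not tested. Of the 30, 0 rose and 0 fell in the limma fit, where 8.52% of all genes changed, a difference that was not tested. An unadjusted p under 0.05 was found for 5 of the 30, against 3599 of all 14779 genes. Their differences ran from -0.33 to 0.38, with a median of -0.03. In a fit without the dimmest 40% of genes 5 passed the test, beside 2221 of all genes. In one whose prior variance followed intensity 5 did, beside 2438, and after repeated quantile normalization 1 did, beside 1389.

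**Figure D5:**
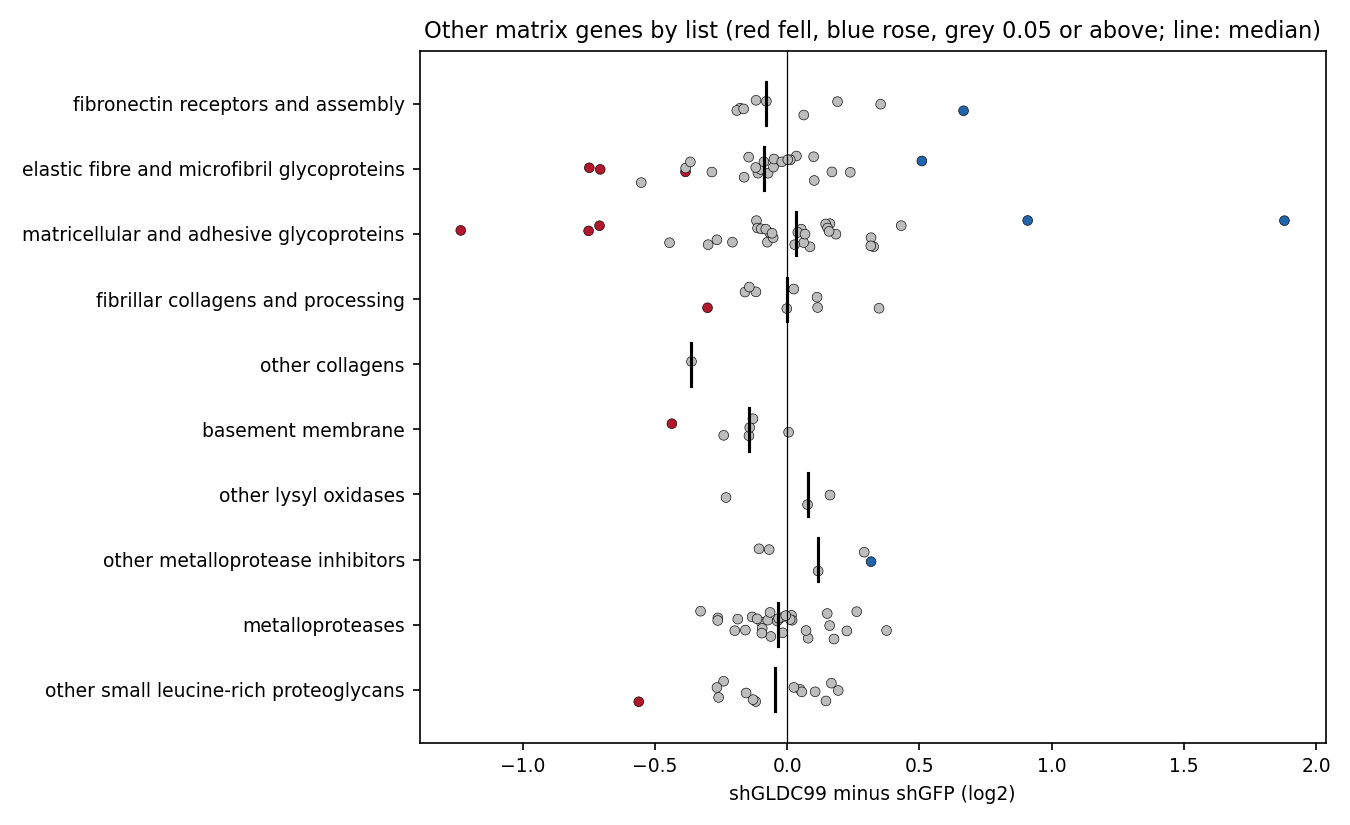
Differences of the other measured matrix genes, shGLDC99 minus shGFP on the log2 scale, by list; red points fell, blue points rose, grey points did not pass the test, and black lines are medians. The points of most lists gather around 0, and the metalloprotease row holds grey points only.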

How the data were processed

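Per the labels' protocols, total RNA was labelled with biotin and hybridised to 6 Affymetrix Human Gene 2.0 ST arrays. The deposited values are per probe set and array and were read as log2 intensity. The base is not stated; log2 was inferred because values reach 13.28, and a 16-bit scanner reading has a natural log of at most 11.09. The authors worked in Partek, per the submitters' processing notes; how background was corrected and values normalized and summarised is not given in the sources used here, nor is a build. Medians by array were 4.28 to 4.33, and nothing further was normalized. The number of arrays limits the precision.

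Of 31135 probe sets, 15098 carried 1 symbol in the platform annotation, 0 several and 16037 none. They cover 14779 genes, 256 of them with several probe sets, where the brightest was used. No filter on dim genes was applied. Differences were tested with limma 3.58.1 (lmFit, eBayes, no covariates) in R 4.3.3. Intervals and standard errors are moderated. Figures were drawn with matplotlib (version 3.10.9).

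Members and lists were chosen with earlier results of these data known. Named were all members, GLDC, near relatives, and from each list the changed genes or, beyond 4, the 4 with the smallest adjusted p. Names of neighbours came from RefSeq (GRCh38.p14), which also gave the promoters. Alternatives were repeated quantile normalization, median centring, a filter on dim genes, averaged probe sets, a replicate block, single arrays left out, an intensity trend, array weights, all probe sets and an adjusted p of 0.01.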

Additional observations from a re-analysis of the deposited data

How the results depend on the processing

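No member reversed its direction under any alternative run. FN1, HMCN1 and GLDC passed the test in all of them, while LOX, FBN2, TIMP3 and LUM did not in some. Genes changed over the whole table numbered 2438 when the prior variance followed intensity (the trend below), 2221 without the dimmest 40% of genes, 275 at an adjusted p of 0.01 and 461 to 546 without any 1 array. The members that fell numbered 2 at an adjusted p of 0.01 and 2 to 4 without any 1 array; those that rose numbered 4 with the trend, 0 at 0.01 and 1 to 2 without any 1 array. FBN1, TIMP1 and BGN passed the test without the dimmest 40% of genes or with the trend, and BGN also after repeated quantile normalization. FBN2 and LUM are among the dimmest 40% and have no value under that filter, and FBN2 was not called with the trend or over all probe sets. Other matrix genes that changed numbered 22 with the dim filter, 24 with the trend, 4 at 0.01 and 5 to 8 without any 1 array. For the letters a, b and c, same-letter deviations correlated at -0.01, 0.02 and 0.0025, so no deviation shared by letter was seen. Whether same-letter arrays were prepared together cannot be read from these values, and the labels do not say. With the letter as a replicate block, limma called 229 genes, 2 falls (FN1 and HMCN1) and 0 rises among the members, of which 5 lower and 4 higher had an unadjusted p under 0.05, and 4 other matrix genes. Levels below the median of all genes are not shown to exceed background, which limits HMCN1, FBN1, FBN2 and LUM.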

Other observations

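Of the 20 genes measured nearest to a member on either side in the reference annotation, 3 fell and 0 rose, against 4.8% lower and 3.72% higher over all genes. BARD1, the partner of BRCA1 and the nearest measured gene to the left of FN1, fell by 0.84 on the log2 scale (limma adjusted p = 0.00248). LINC00607, to the right of FN1, differed by -0.03 (adjusted p = 0.908) and ATIC, which overlaps FN1, by 0.14 (adjusted p = 0.209). ISOC1, beside FBN2, fell by 0.84 (adjusted p = 0.00331) and the kinase gene ARAF, beside TIMP1, by 0.29 (adjusted p = 0.0417). BARD1 and ISOC1 held their calls without any 1 array, and ARAF lost it without each of the 6 (adjusted p of 0.0885 to 0.123). LOX lies within SRFBP1, which differed by -0.29, with 95% interval -0.47 to -0.12 (adjusted p = 0.0578). KERA and DCN, the leucine-rich proteoglycan genes on either side of LUM, differed by -0.24 (adjusted p = 0.489) and 0.06. These neighbours were looked at after their values could be seen.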
